A study of Arabidopsis thaliana with 54 samples.

Results

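The features described here are the 100 most abundant features with a numbered trex name in small RNA libraries of whole Arabidopsis thaliana seedlings (genotype Columbia 0, shoots and roots together). They were chosen by level alone. The entry named genome was dropped from the deposited table, each library was scaled to CPM of its remaining total (counts per 1 M counts), and the 100 of 223365 trex features with the highest mean CPM over all 54 libraries were kept. Their levels and ranks are therefore a description. The comparisons between photoperiods and times use differences that the mean over all libraries does not set. All tested features, the next 100 trex features and the 149 tested microRNA features serve only as points of comparison.

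Every seedling was stratified in the dark for 48 h, then grown for 10 days in 12 h of light and 12 h of dark. On day 11 seedlings were moved to long day (16 h light, 8 h dark), to short day (8 h light, 16 h dark), or kept in equinox day (12 h light, 12 h dark), and all were harvested on day 13. In each photoperiod tissue was taken at Zeitgeber times (ZT, hours after lights on) 4, 8, 12, 16, 20 and 24, with replicates A, B and C at each time. This gives 18 libraries per photoperiod and 3 in each of the 18 groups. The labels do not say whether A, B and C came from separate plates, so the p-values measure the spread between these libraries, which may be technical. RNA of at least 7 on the integrity scale was used and molecules of up to 40 nucleotides were taken from a gel.

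Plants make several classes of small RNA. MicroRNAs are cut from hairpin transcripts and guide ARGONAUTE proteins to matching messenger RNAs, and small interfering RNAs are cut from double-stranded RNA and direct cleavage or DNA methylation. A library cut from a gel by size can also hold breakdown pieces of ribosomal RNA, transfer RNA and other long RNAs. Which of these classes a trex feature belongs to has no answer in the labels or the table (not given in the sources used here), and the table pairs the names with no sequence, position or gene. The members are therefore named by their numbers, and no identity or role is given to any of them.

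Libraries held 13.67 to 23.28 M counts (median 17.61 M). The genome entry took 79.6% to 92.9% of them, with medians of 85.6% in long day, 86.1% in short day and 87.2% in equinox day. Outside it lay 1.33 to 3.59 M counts (median 2.32 M), which are the basis of every share below. Of the short-day libraries, 5 stood apart from all long-day and equinox-day libraries on the first principal component, which held 21.7% of the variance (ZT4 replicate B, ZT12 replicate C, ZT16 replicate B, ZT20 replicate A and ZT24 replicate C). The lowest count of any member in any library was 249, where counting error alone gives a coefficient of variation (CV, the SD as a percentage of the mean) of 6.34%, and no member was at 0 in any library.

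A few features held most of the signal. Over all libraries pooled, the 100 members made up 0.0448% of the trex features and held 71.2% of what lay outside the genome entry, or 79.1% of all trex counts. The 10 most abundant held 48.0% and trex5742 alone 25.0%, which is 35.2% of what the members held. The next 100 trex features held 4.73% and all 286 microRNA features 10.1%, while 75.2% of the trex features had fewer than 10 counts in all libraries together. Among all features, 15 microRNAs had a higher mean than the last member, and 0 had a higher mean than the second.

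**Figure D1:**
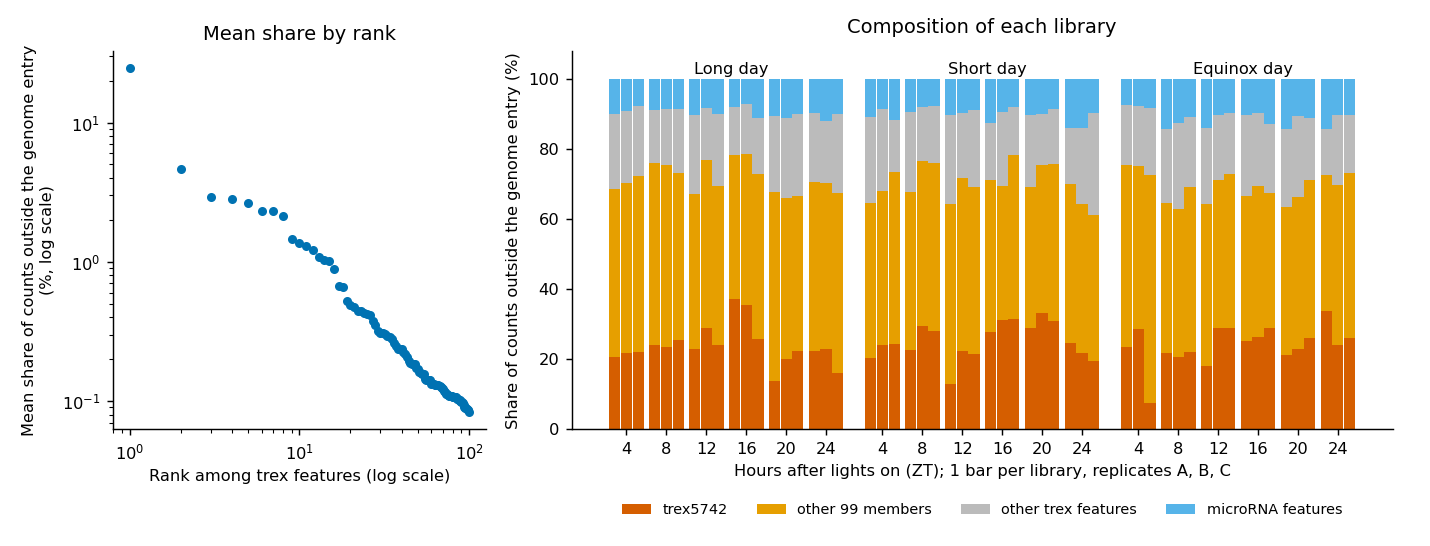
Left, the mean share of counts outside the genome entry (%, log axis) of each of the 100 members against its rank (log axis), over 54 libraries. Right, 1 stacked bar per library in % of counts outside the genome entry: the bars show trex5742 between 7.59% and 37.37%, and all 100 members together between 61.2% and 78.7%.

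The share of all 100 members spanned similar ranges in the 3 photoperiods. It ran from 66.2% to 78.7% (median 70.5%) in long day, from 61.2% to 78.4% (median 69.8%) in short day and from 63.0% to 75.4% (median 69.6%) in equinox day, and the 3 ranges overlapped. The mean over the 54 libraries was 70.5% ± 4.37 (SD). The number of trex features needed to reach 50% of the trex counts of a library ranged from 4 to 19 (median 8.5). Concentration was greatest in long day ZT16 replicate A, where 4 features sufficed and trex5742 held 37.37%. The effective number of trex features (the inverse of the sum of squared shares) was 5.79 there and 28.0 in short day ZT12 replicate A, the 2 ends of its range.

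Most members ranked high in most libraries. Between 77 and 94 of the members (median 87) ranked among the 100 highest trex features of a given library, and 49 did so in all 54. Chosen within 1 photoperiod, 94 of the 100 would have been taken in long day, 93 in short day and 96 in equinox day, and 84 in all 3. At the edge of the rule the values lay close together: trex9320, trex912382 and trex163065 at ranks 98 to 100 had means of 862.32, 862.03 and 831.76 CPM before TMM scaling, and the next 3, trex2391, trex10793 and trex2825, had 816.66, 797.79 and 785.73 CPM.

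The most abundant feature, trex5742, ranked first among trex features in 53 of 54 libraries, and its mean was 5.26 times that of the second feature. Its share ran from 13.72% to 37.37% (median 22.97%) in long day, from 13.02% to 33.34% (median 24.55%) in short day and from 7.587% to 33.77% (median 24.79%) in equinox day. The exception was equinox day ZT4 replicate C, where trex5742 held 7.587% and came second, against 23.45% and 28.54% in replicates A and B of the same group. In that library trex177072 held 8.554%. Second place went to trex137994 in 34 libraries and to trex1199 in 13. Between replicates its median CV over the 18 groups was 12.0% on shares, of whose total it is itself a large part, and 26.6% on TMM-scaled CPM, rank 50 of 100 from the narrowest.

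Seen over the day, trex5742 held 37.37%, 35.40% and 25.70% of counts at ZT16 in long day and 13.72%, 20.24% and 22.47% at ZT20, so these 2 groups of 3 did not overlap. In short day its highest group was ZT20, with 28.90%, 33.34% and 30.98%, and its lowest ZT12, with 13.02%, 22.52% and 21.43%. In equinox day its highest group was ZT24, with 33.77%, 24.20% and 26.09%, and its lowest by mean share ZT4 (mean 19.86%), with 23.45%, 28.54% and 7.587%. On TMM-scaled CPM the lowest was ZT8, whose replicates held 21.78%, 20.62% and 22.08% of counts. None of the 7 tests called trex5742, and the 95% intervals of its log2 fold change were -0.36 to 0.20 for long day over short day, -0.30 to 0.26 for long day over equinox day and -0.22 to 0.34 for short day over equinox day. For time within long day the adjusted p was 0.0546 in edgeR's quasi-likelihood test, and it was 0.015 with DESeq2 size factors and 0.805 with the genome share as a covariate, so this call depended on the fit. With DESeq2's own test it was 0.00505. The call was gained when any of 28 of the 54 libraries was left out. For the interaction of photoperiod and time its adjusted p was 0.0692. That fell below the threshold without equinox day ZT4 replicate C (0.0213), without short day ZT8 replicate A (0.0358), ZT24 replicate A or any short-day ZT4 library, with DESeq2 size factors (0.0381) and in DESeq2's test (0.0088).

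**Figure D2:**
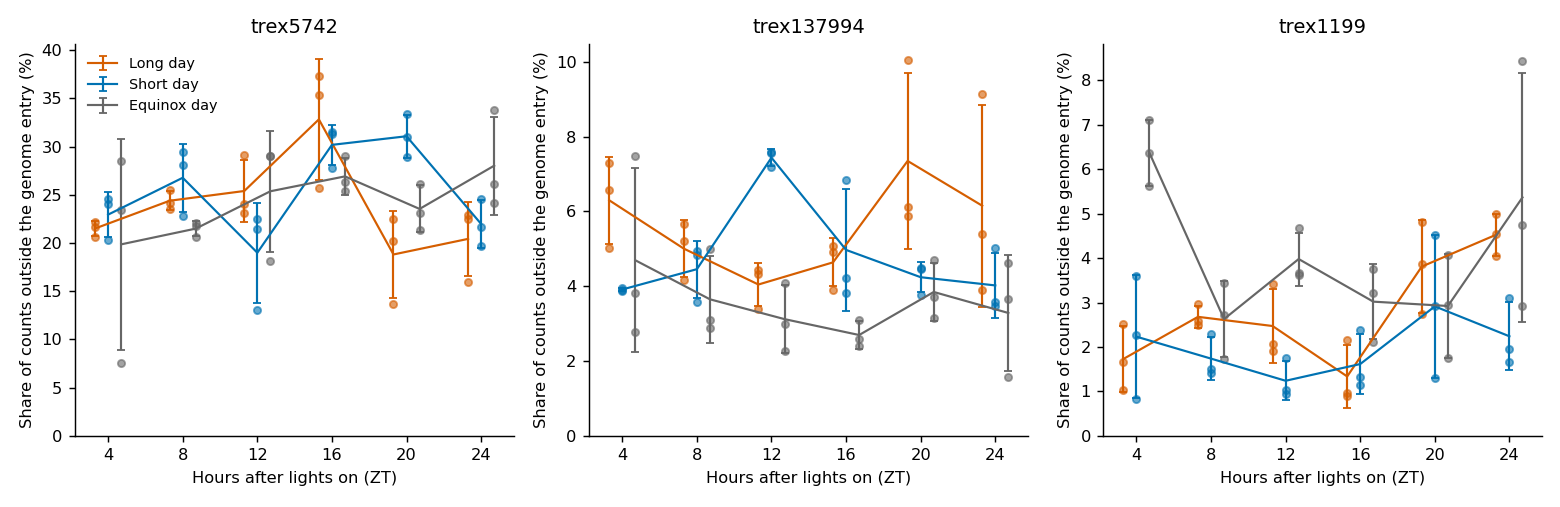
Share of counts outside the genome entry (%) of the 3 most abundant members against hours after lights on, with points for the 3 replicates and lines through the group means ± SD (long day left, short day middle, equinox day right at each time). For trex5742 the lowest point is the equinox-day ZT4 replicate at 7.587%, and for trex1199 all 3 equinox-day ZT4 replicates lie above 5.6%.

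The second feature, trex137994, was higher in both changed photoperiods than in equinox day. Its TMM-scaled CPM (CPM on totals corrected by the trimmed mean of M-values) ran from 27536 to 99058 (median 51863) in long day, from 25283 to 97223 (median 48840) in short day and from 21362 to 99211 (median 32305) in equinox day, ranges that overlapped. The log2 fold change was 0.67 ± 0.16 (SE, adjusted p = 0.00243, same sign at 6 of 6 times) for long day over equinox day and 0.45 ± 0.16 (adjusted p = 0.0293, 4 of 6 times) for short day over equinox day. These contrasts share the equinox-day libraries. The second call was lost with the genome share as a covariate (0.32, adjusted p = 0.0836) and when short day ZT4 C, ZT16 C or ZT24 A, or equinox day ZT24 A, was left out. Long day over short day gave 0.22 ± 0.16 (adjusted p = 0.334).

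The third feature, trex1199, was lower in both than in equinox day. It ran from 10198 to 54481 TMM-scaled CPM (median 24556) in long day, from 6178 to 55120 (median 16684) in short day and from 13146 to 109590 (median 38076) in equinox day. The log2 fold change was -0.97 ± 0.20 (adjusted p = 0.000249, same sign at 5 of 6 times) for short day over equinox day. For long day over equinox day it was -0.60 ± 0.20 (adjusted p = 0.0313, 4 of 6 times). That call was lost with the genome entry in the totals (-0.43, adjusted p = 0.149) and with a filter of 50 counts in all libraries together. It was also lost without long day ZT4 C, ZT12 C, ZT16 A, ZT16 B, ZT20 C or ZT24 C, or equinox day ZT8 A, ZT16 A, ZT20 C or ZT24 C. At ZT4 in equinox day its replicates had 64130, 90300 and 84570 TMM-scaled CPM, the highest group. At ZT8, the lowest group, they had 30040, 13150 and 24880, and these 2 groups, picked from the same values, did not overlap.

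The other 7 of the 10 most abundant were trex140031, trex5737, trex141978, trex972, trex3807, trex137995 and trex5746, with mean shares of 2.84%, 2.64%, 2.33%, 2.33%, 2.14%, 1.45% and 1.37%. None of them was called in a photoperiod contrast. In all, 15 members had a mean share above 1%.

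The spread between replicates varied among members. Each member's CV over 3 replicates was taken in each of the 18 groups on its share of counts, and its median over groups ranged from 11.5% to 57.7%. The median over members was 23.3%, against 27.9% for the next 100 trex features, 30.5% for the tested microRNAs and 44.9% for all 8869 tested features. By the spread fitted in the model (the square root of each feature's dispersion), the medians were 0.351, 0.374, 0.349 and 0.425 in the same order. On that scale the members' median was close to that of the microRNAs. These sets also differ in abundance, and the part of abundance in the order of these medians was not tested. On shares the narrowest members were trex2806 (11.5%) and trex5742 (12.0%), but on TMM-scaled CPM their CVs were 20.9% and 26.6%, beside a median over members of 26.66%, and trex2787 (13.2%) and trex1082 (14.2%) were the narrowest. The widest on both scales were trex224280 (57.7% on shares, 56.1% on TMM-scaled CPM) and trex10776 (39.6% and 38.3%). The ratio of a member's highest to lowest library was 2.48 to 54.5 (median 6.12), and it was above 10 for 23 members.

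**Figure D3:**
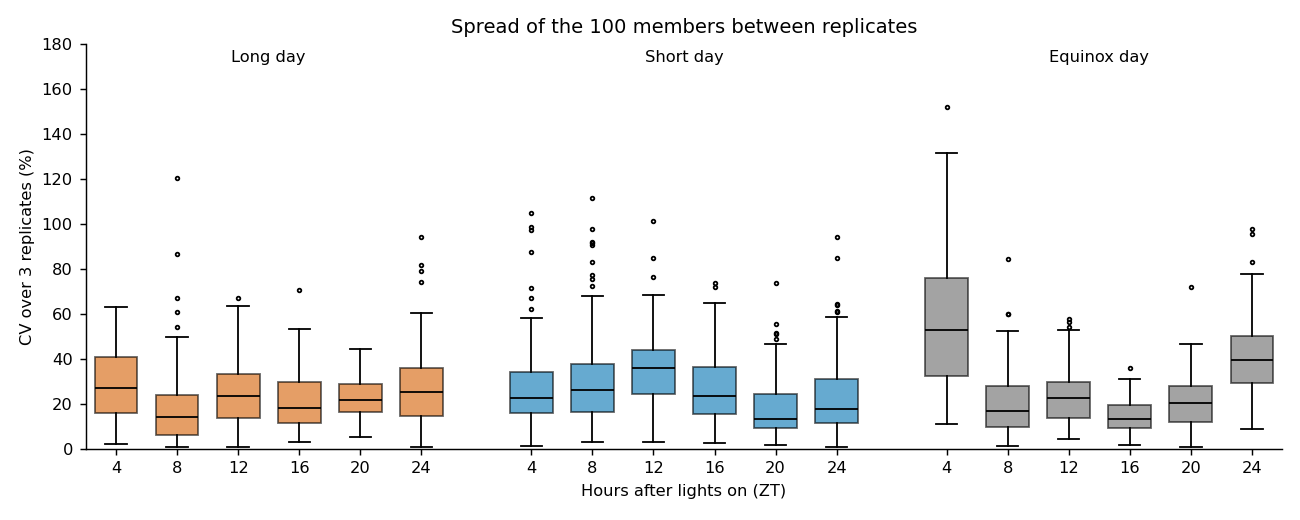
CV (%) over the 3 replicates of each group for the 100 members, computed on shares of counts outside the genome entry, as boxes (median and quartiles, whiskers to the last value within 1.5 box lengths) by photoperiod and hours after lights on. The equinox-day ZT4 box has the highest median, 52.8%, and short day ZT20 the lowest, 13.2%.

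The spread was uneven between groups. The median CV over members was 52.8% in equinox day ZT4, 39.5% in equinox day ZT24 and 36.1% in short day ZT12, and 13.2% to 26.97% in the other 15 groups. More than their own median over the other groups was the spread of 87 members in equinox day ZT4, 90 in equinox day ZT24 and 79 in short day ZT12. Replicate C of equinox day ZT4 held the lowest share of 27 members and the highest of 15, more than any other library. It contained 12.85% of the summed share of trex174476 over all 54 libraries and 12.12% of that of trex177072. On the log2 scale, each feature's sum of squares was split into photoperiod, time, their interaction and the part between replicates. The medians over members, taken for each part separately, were 11.7%, 12.4%, 21.2% and 50.5%. Over all tested features they were 10.2%, 9.6%, 18.7% and 55.9%. These shares are not corrected for the number of means behind each part. A part with more means takes a larger share even without any effect, so no effect is read from them.

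Photoperiod was tested on read counts with 1 mean for each of the 18 groups, as the mean over 6 times, and a feature was called at an adjusted p below 0.05 over all 8869 tested features. All 100 members were tested, their high levels taking them past the filter on low counts. Long day over short day called 19 of the 100 members, 10 higher and 9 lower, where 25.2% of all tested features were called (10.8% higher and 14.4% lower). Long day over equinox day called 25, 11 higher and 14 lower, where 15.7% of all were called (8.66% higher and 7.01% lower). Short day over equinox day called 31, 11 higher and 20 lower, where 32.8% of all were called (17.2% higher and 15.6% lower). Of the next 100 trex features 35, 32 and 45 were called in these contrasts. The members' share was below that of all features in the first contrast, above it in the second and near it in the third, and below that of the next 100 in each; these differences were not tested. Each pair of these contrasts shares 18 libraries.

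Medians lay close to those of all features. The median log2 fold change of the members was 0.09, -0.02 and 0.04 in the order just given, against -0.02, -0.07 and 0.03 for all tested features. The balance of directions moved with the scaling and with other choices. DESeq2 size factors gave 7 higher and 13 lower for long day over short day and 15 and 17 for short day over equinox day. Totals that include the genome entry gave 16 and 7, 19 and 3, and 17 and 18 in the 3 contrasts, and moved the median of all features by 0.098, 0.178 and 0.073. Leaving trex5742 out gave 6 and 10 for long day over short day and 9 and 19 for long day over equinox day. No scaling factors gave 15 and 16 for short day over equinox day. Without the 5 short-day libraries that stood apart, long day over short day gave 4 and 9. With the genome share as a covariate, long day over equinox day gave 5 and 18 and short day over equinox day 7 and 23. A filter of 50 counts in all libraries together gave 13 and 8 for long day over equinox day and 17 and 14 for short day over equinox day. For the members as a group, no direction is therefore given.

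**Figure D4:**
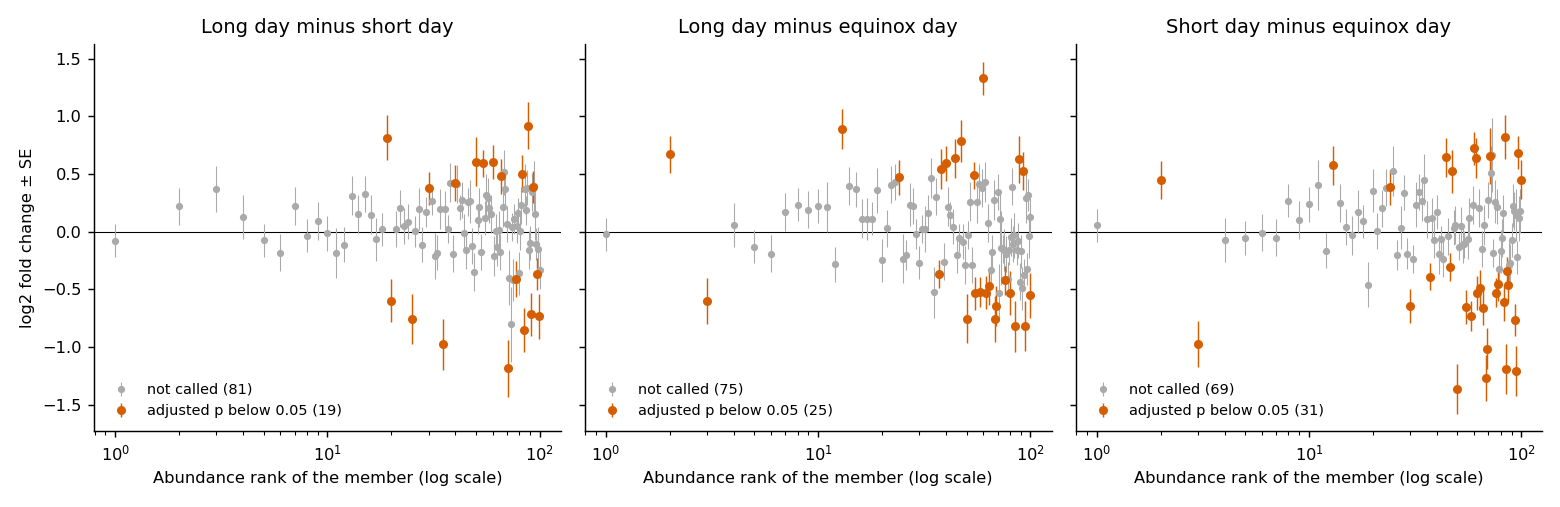
Log2 fold change ± SE of the 100 members against abundance rank (log axis) for long day minus short day, long day minus equinox day and short day minus equinox day. Orange points passed an adjusted p of 0.05 (19, 25 and 31 members) and grey points did not. None of the 10 most abundant was called between long day and short day.

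Between long day and short day the largest rises were in trex268871 and trex230474. For trex268871, TMM-scaled CPM ran from 448 to 2195 (median 1456) in long day and from 331 to 1180 (median 744) in short day, a log2 fold change of 0.92 ± 0.20 (adjusted p = 0.000916). For trex230474 it ran from 2502 to 9795 (median 6772) in long day and from 1533 to 5991 (median 3895) in short day, a change of 0.82 ± 0.19 (adjusted p = 0.00184). The largest falls were in trex253246, with 225 to 1554 (median 734) in long day and 672 to 2763 (median 1690.0) in short day, a change of -1.18 ± 0.25 (adjusted p = 0.000456), and in trex179959, with 809.0 to 4300.5 (median 1693) in long day and 1445 to 6811 (median 3828) in short day, a change of -0.98 ± 0.22 (adjusted p = 0.00122). In each of these 4 the ranges overlapped, and the sign was the same at 6 of 6 times. All 4 calls held in the 10 alternative fits and with each of the 54 libraries left out. Both rises were in 1 set of members that moved together from library to library, led by trex424. Both falls were in another, led by trex140031 (sets described below). The 4 are therefore not 4 separate observations. Of the 9 lower members, 8 had the same sign at all 6 times, and of the 10 higher members, 3 did. Several of these members moved together in sets, so these counts of signs are not counts of separate observations.

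Between long day and equinox day the largest rise was in trex450. It ran from 589 to 3524 TMM-scaled CPM (median 1968) in long day and from 321 to 1447 (median 745) in equinox day, a log2 fold change of 1.33 ± 0.15 (adjusted p = 6.95e-10, same sign at 6 of 6 times), and in short day it ran from 744 to 2260 (median 1198.0). It was also called in the other contrasts, with 0.60 ± 0.14 for long day over short day and 0.72 ± 0.14 for short day over equinox day (adjusted p = 0.00187 and 0.000157). The next was trex180739, with 6009 to 24503 (median 13718) in long day and 4038 to 16880 (median 6502) in equinox day, a change of 0.89 ± 0.17 (adjusted p = 0.000117, 6 of 6 times). The largest falls were in trex10776, with 136 to 1815 (median 979.8) in long day and 428 to 2068 (median 1577) in equinox day, and in trex258, with 129 to 1672 (median 858) in long day and 568 to 1646 (median 1344) in equinox day. Their changes were -0.82 ± 0.22 each (adjusted p = 0.00607 and 0.00612), with the same sign at 5 and 4 of 6 times. Of the 14 lower members, 1 had the same sign at all 6 times, and of the 11 higher members, 9 did. Here too several members moved together in sets, so these are not counts of separate observations.

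Between short day and equinox day the largest rise was in trex267245, with 757 to 3118 TMM-scaled CPM (median 1313.0) in short day and 362 to 3743 (median 685) in equinox day, a log2 fold change of 0.82 ± 0.19 (adjusted p = 0.00113). The rise of trex450 came next. The largest falls were in trex139790, with 328 to 1976 (median 715) in short day and 728 to 3653 (median 2460) in equinox day, a change of -1.36 ± 0.21 (adjusted p = 4.03e-06), and in trex10804, with 329.8 to 1447 (median 564) in short day and 603 to 3154 (median 1792) in equinox day, a change of -1.27 ± 0.20 (adjusted p = 4.57e-06). The ranges overlapped, and the sign of trex267245, trex139790 and trex10804 was the same at 6 of 6 times. The falls of trex139790 and trex10804 are not separate observations, since these members moved together in 1 set described below. Of the 20 lower members, 16 had the same sign at all 6 times, and of the 11 higher members, 5 did. As in the other contrasts, several moved together in sets and are not separate observations.

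Differences among the 6 times were tested jointly within each photoperiod. Within long day 22 of the members were called, where 13.3% of all tested features and 24 of the next 100 trex features were. By group mean, 9 of the 22 members peaked at ZT16, the end of the long-day light period, 8 at ZT20, 4 at ZT8 and 1 at ZT24. Of the 22, 12 had their trough at ZT20 and 6 at ZT16. Of the 22, 7 were in 1 set of members, described below, that moved together from library to library and all peaked at ZT16. These counts of peak times are therefore not counts of separate observations. The highest group mean was 2.29 to 5.74 times the lowest. The genome entry's share also moved with time in long day: it averaged 80.8% at ZT16 and 89.1% at ZT20. With that share as a covariate 3 members were called in place of 22, and DESeq2's own test called 37. Without long day ZT16 replicate A 13 were called, and 13 without replicate B.

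The smallest p-values within long day belonged to trex9320 and trex975. For trex9320, TMM-scaled CPM at ZT16 was 1574, 1214 and 1099 and at ZT20 262, 223 and 242, without overlap (adjusted p = 0.000882). For trex975 it was 4227, 3122 and 2472 at ZT8 and 580.0, 765.5 and 625.3 at ZT20, also without overlap (adjusted p = 0.00127). For both members these are the highest and lowest groups, picked from the same values. Of the 10 most abundant, trex972 (adjusted p = 0.00129), trex5746 (0.0133) and trex141978 (0.0334) were called. In trex972 the ZT8 replicates had 69030, 51170 and 43670 and the ZT20 replicates 9468, 12900 and 11460. In trex5746 the ZT16 replicates had 30780, 33720 and 20490 and the ZT20 replicates 7786, 9508 and 8839. With the genome share as a covariate the calls of trex5746 (adjusted p = 0.21) and trex141978 (0.635) were lost, and both were lost without long day ZT16 replicate A or B. That of trex141978 was also lost without long day ZT20 replicate A and with no scaling factors. The calls of trex9320, trex975 and trex972 held in all of these fits.

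Within short day 1 member was called, trex9320, where 4.0% of all tested features and 0 of the next 100 trex features were. An unadjusted p below 0.05 was found for 10 members, where 12.2% of all tested features and 9 of the next 100 trex features had one. At ZT8 trex9320 had 1003, 1752 and 3881 TMM-scaled CPM and at ZT24 305, 142 and 196 (adjusted p = 6.73e-06), and the 2 groups did not overlap. Its mean at ZT8 was 10.3 times that at ZT24. DESeq2's test and the fit with no scaling factors called 3 members each, the genome share as a covariate gave 2, and 2 were called without short day ZT8 replicate A.

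Within equinox day 10 members were called, where 5.2% of all tested features and 12 of the next 100 trex features were. Of these 10 members, 9 peaked at ZT4 and 1 at ZT24, and 6 had their trough at ZT16. The smallest p-values were those of trex174476 and trex177072. For trex174476, TMM-scaled CPM was 11320, 2583 and 27970 at ZT4 and 834.5, 1162 and 859 at ZT16 (adjusted p = 1.96e-07). For trex177072 it was 35540, 9803 and 113600 at ZT4 and 3509, 6088 and 4309 at ZT16 (adjusted p = 9.21e-06). In both the ZT4 replicates lay above the ZT16 replicates but differed among themselves by more than 10-fold. Without equinox day ZT4 replicate C, trex177072 was no longer called (adjusted p = 0.0556), while trex174476 was. The count of members was 5 without that library, 5 without ZT8 B, ZT16 C or ZT20 B, and 6 without ZT16 A or ZT20 A. It was 4 on totals that include the genome entry, 16 with the genome share as a covariate and 17 in DESeq2's test.

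Of the 10 most abundant, trex972 (adjusted p = 0.00565), trex137995 (0.019), trex1199 (0.0286) and trex3807 (0.0473) were called within equinox day. The call of trex972 was lost without equinox day ZT4 replicate A (adjusted p = 0.184), where it had 85180 TMM-scaled CPM against 29980 and 31550 in replicates B and C. That of trex3807 was lost without any of 41 of the 54 libraries, that of trex1199 without equinox day ZT4 B, ZT4 C, ZT8 B, ZT16 C, ZT20 A, ZT20 B or ZT24 C, and that of trex137995 without equinox day ZT4 C, ZT8 B, ZT16 A, ZT16 C or ZT20 B. All 4 were lost on totals that include the genome entry. With no scaling factors those of trex1199, trex137995 and trex3807 were lost, and with trex5742 left out those of trex1199 and trex3807. The call of trex3807 was lost in 6 of 10 alternative fits.

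**Figure D5:**
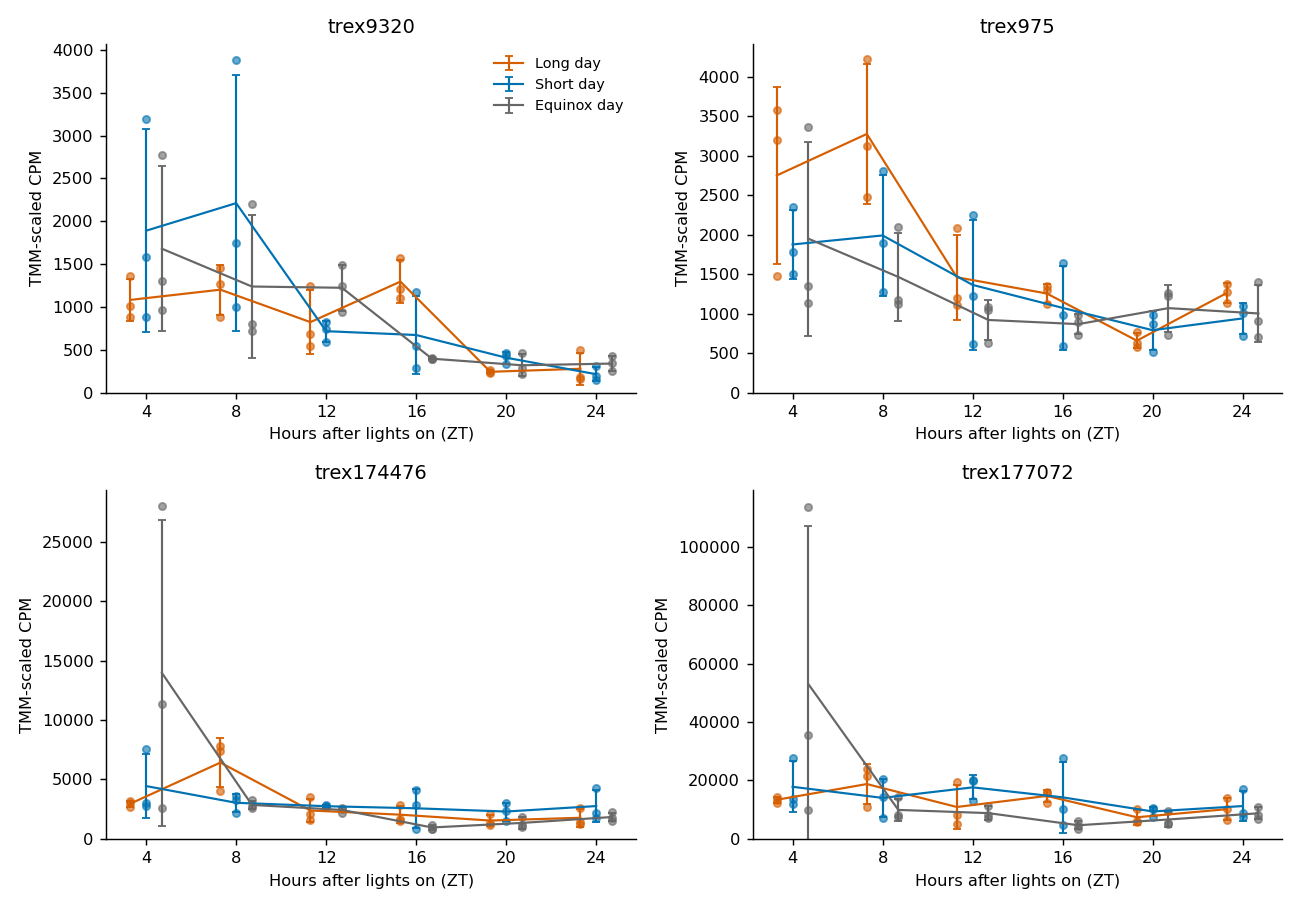
TMM-scaled CPM of 4 members against hours after lights on, with points for replicates and lines through group means ± SD (long day left, short day middle, equinox day right at each time; bars are cut at 0). For trex9320 all values at ZT20 and ZT24 are at or below 492 in the 3 photoperiods, and for trex174476 and trex177072 the equinox-day ZT4 replicates range over more than 10-fold.

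Whether the differences among times differed between photoperiods was tested as the interaction of photoperiod and time. It called 3 members, trex174476 (adjusted p = 0.00994), trex177072 (0.0402) and trex6850 (0.043), where 5.92% of all tested features and 3 of the next 100 trex features were called. An unadjusted p below 0.05 was found for 35 members, where 22.1% of all tested features and 30 of the next 100 trex features had one. By group mean, trex174476 was highest at ZT8 in long day and at ZT4 in short day and equinox day, and its highest group mean was 4.18, 1.93 and 14.7 times its lowest in long, short and equinox day. Without equinox day ZT4 replicate C, neither trex174476 (adjusted p = 0.0921) nor trex177072 (0.356) was called, and the count was 7. Over all single libraries left out the count ran from 1 to 12, over the alternative fits from 1 on totals that include the genome entry to 27 in DESeq2's test.

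Called by the time tests of all 3 photoperiods was trex9320 alone. At ZT20 and ZT24 it was at or below 492 TMM-scaled CPM in every library, and its adjusted p was 0.000882 in long day, 6.73e-06 in short day and 0.000262 in equinox day. Its level did not differ between photoperiods at the threshold, with log2 fold changes of -0.15, -0.04 and 0.12 and an adjusted p of 0.61 or more.

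Members rose and fell together from library to library in distinct sets. For each of the 4950 pairs, the correlation r of log2 CPM was taken over the 54 libraries after removing group means, as a description, since all members of a library share its total and its preparation. The median r was 0.114 and the range -0.75 to 0.99. In 85 pairs r was above 0.9, and joined pairs of this kind made 17 sets with 63 members in all. The limit of 0.9 was chosen after the values were seen. The steadiest pairs were trex5746 with trex5765, trex141978 with trex187399 and trex203676 with trex206494. Within groups, the log2 ratio of each of these pairs varied by an SD of 0.06, 0.08 and 0.09, at mean ratios of 3.91, 9.87 and 3.17, so that the counts of either feature were close to a fixed multiple of its partner's.

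The largest set had 12 members led by trex5742 and held 33.5% of counts outside the genome entry. All 12 were highest at ZT16 in long day and at ZT24 in equinox day by group mean, and 7 of them at ZT16 in short day. None of the 12 was called in a photoperiod contrast, with log2 fold changes from -0.29 to 0.34 over the 3 contrasts. For time, 7 were called within long day, 0 within short day and 0 within equinox day. Over the 18 group means the patterns most like that of trex5742 were those of trex5737 (r = 0.98), trex141978 (0.96) and trex273747 (0.94). In contrast, 38 members had a negative r with trex5742 within groups.

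Other sets had their highest group means at other times. The 6 members led by trex972, with trex975 among them, all had theirs at ZT8 in long day and short day and at ZT4 in equinox day. Of these 6, 2 were called for time within long day, 0 within short day and 2 within equinox day. Members of a set move together, so their shared times are not separate observations. The 3 members led by trex137994, trex180739 included, were all called higher in long day and in short day than in equinox day, with log2 fold changes of 0.67 to 0.89 and of 0.45 to 0.57. The 3 members led by trex139790, with trex10804 and trex10776, were all called lower in the same contrasts, with -0.82 to -0.75 and -1.36 to -1.19. A pair of trex264 and trex258 showed -0.82 to -0.64 and -1.21 to -1.01. Not every set shared a direction. For long day over short day, the 8 members led by trex424 ran from -0.21 to 0.92, with 2 called. In the same contrast the 6 members led by trex140031 ran from -1.18 to 0.32, with 3 called. Set members named here beyond the naming rule were chosen after their values were seen.

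Members with neighbouring numbers moved alike in the median pair, though not in every pair. The numbers of the members ran from 124 to 912382 and were not spread evenly: 54 lay below 14000, where 4.65% of all trex features lie, 44 between 133569 and 286641, and 2 above. Of all trex features, 60.4% have numbers above 287k, and the share in the middle range was not taken. These limits follow the members' own numbers, so the grouping is a description only. In 31 pairs, with 35 members, the numbers differed by 10 or less. Many of these pairs share a member, as those of trex5742 do, so they are not separate observations. The median r within groups of these pairs was 0.82 (range 0.22 to 0.97), against 0.11 for all 4950 pairs, and the log2 ratio of such a pair varied by a median SD of 0.29, against 0.66 for all pairs. Neither how the numbers were assigned nor whether a read matching several features was counted for each is known (not given in the sources used here); counts of such neighbours may share reads.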

How the data were processed

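Small RNA was sequenced from 54 libraries of whole seedlings. The authors deposited a table of read counts per feature, in which all values tested were whole numbers. Per the submitters' processing notes, Bowtie2 2.5.1, SAMtools and cutadapt 3.4 were used. For settings, genome build, counting rule and reads with several matches: not given in the sources used here. An entry named genome (86.1% of counts) names no gene and was left out of totals and tests.

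The model, in edgeR 4.0.16 under R 4.3.3 and with limma 3.58.1, had 18 group means, TMM factors and the filterByExpr filter (minimum count 10, minimum total 15), which left 8869 features with 98.1% of the counts analysed. The 7 quasi-likelihood tests (3 photoperiod contrasts, time within each photoperiod, their interaction) were adjusted by Benjamini-Hochberg over all 8869 features, threshold 0.05. The SE of a log2 fold change follows from the test statistic, and 95% intervals are 1.96 SE either side. Shares and CVs use counts outside the genome entry; r uses log2 CPM with a prior count of 2. Summaries used pandas 2.3.3 and numpy 2.4.6. The fit was tested on simulated counts in which each feature was drawn by itself. Features that move together were not simulated, so that test does not show how the calls fare with such sets.

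Members and lists were chosen with earlier results of these data known. Named were the 10 most abundant members, those at the edge of the rule, the 2 largest rises and falls per contrast, the 2 smallest p per time test and interaction, the 2 widest and 2 narrowest between replicates, the 2 with the largest share in 1 library, the 3 steadiest pairs and the 3 patterns most like trex5742. Others, such as trex6850, trex264, trex2787 and trex1082, were named after their values were seen. Alternatives were other scalings, totals with the genome entry, trex5742 left out, other filters, DESeq2 1.42.0, a replicate block, the genome share as a covariate, the 5 short-day libraries that stood apart left out, and each library left out, the last 2 on the same 8869 features.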

Additional observations from a re-analysis of the deposited data

Results flagged for a closer look

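Members whose differences among times differed between photoperiods by the interaction test were trex174476 (adjusted p = 0.00994), trex177072 (adjusted p = 0.0402) and trex6850 (adjusted p = 0.043), in edgeR's quasi-likelihood test over all tested features. In trex174476 and trex177072 the highest library was equinox day ZT4 replicate C, with 27970 and 113600 TMM-scaled CPM, and without it neither was called (adjusted p = 0.0921 and 0.356). In trex6850 the group means were highest at ZT8 in long day, at ZT20 in short day and at ZT4 in equinox day, with highest over lowest of 1.72, 1.66 and 2.65. Its call was lost in 5 of 10 alternative fits and without any of 22 single libraries, and that of trex177072 without any of 25. Groups of 3 and of 18 libraries were not tested for a library far from the others.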

How the results depend on the processing

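Counts of members called stayed within 1.5 times in the 3 photoperiod contrasts under every alternative that was run. With each of the 54 libraries left out they ran from 13 to 23 for long day over short day (19 with all libraries), 18 to 35 for long day over equinox day (25) and 25 to 40 for short day over equinox day (31). They ran from 13 to 29 for time within long day (22), 1 to 2 within short day (1), 5 to 12 within equinox day (10) and 1 to 12 for the interaction (3). Time within long day gave 3 with the genome share as a covariate and 37 in DESeq2's test. Time within short day gave 3 without scaling factors, 2 with the covariate and 3 in DESeq2's test. Time within equinox day gave 4 on totals with the genome entry, 16 with the covariate and 17 in DESeq2's test. The interaction gave 13 with DESeq2 size factors, 14 without scaling factors, 1 on totals with the genome entry, 9 without the short-day libraries that stood apart, and 27 in DESeq2's test. It gave 1 without long day ZT4 C, ZT8 A, ZT8 B or any ZT16 library, or without equinox day ZT8 A or any ZT16 library. It gave 5 to 7 without long day ZT12 A, ZT12 B or ZT24 C, short day ZT8 B, ZT12 A, ZT16 B, ZT16 C, ZT20 A or ZT24 A, or equinox day ZT4 C, and 11 or 12 without any short-day ZT4 library or ZT8 A. The cause was not tested.

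Of 373 values of named members under 10 alternative fits, 339 kept direction and side of the threshold, 24 lost the call, 6 gained it and 4 turned round. Those 4 were of trex5742, not called in any of them: 0.004 and 0.127 on totals with the genome entry for long day over short day and over equinox day, 0.045 for long day over equinox day with a filter of 50 counts in all libraries together, and -0.048 with the covariate for short day over equinox day. With each library left out trex5742 ran from -0.164 to -0.017, from -0.084 to 0.045 and from -0.005 to 0.157 in the 3 contrasts, not called in any. The members' mean share was 78.39% of trex counts and 10.02% of all counts, and that of trex5742 3.542% of all counts. With each library left out, the mean share of counts outside the genome entry ran from 70.3% to 70.63% for the members. For trex5742 it ran from 24.23% to 24.79%. The median CV was 26.66% on TMM-scaled totals and ran from 21.72% to 23.36% with each library left out.

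With replicate letters as a replicate block the counts were 17, 24, 30, 21, 1, 10 and 3. Averaged over all photoperiods and times, the letters showed no pairing: deviations from group means correlated by -0.0098 on average between libraries of the same letter and 0.0059 between other letters. Pairing by letter within 1 photoperiod was not tested. Of 459 same-letter pairs 156 were above 0.1, with no count of other-letter pairs to set beside it, and 16 of 54 libraries were closest to their own letter. The fit without any filter was not run; the filter of 50 counts, added after the data were seen, took its place. The lowest count of a member was 249; the part of depth and of the number of replicates in the calls was not tested.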
